A study of Mus musculus with 6 samples.

Results

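Genes of the vascular basement membrane and of the receptors that hold cells to it were examined in endothelial cells sorted from mouse bone marrow. They were chosen by gene symbol from a list of 42 genes: 17 integrin alpha chains, 8 integrin beta chains, 10 laminin chains and 7 basement membrane and pericellular glycoproteins. Of these, 41 were measured among 22180 genes in all; Itga10 was not analysed here. All mice were male C57BL/6J; 3 arrays came from mice labelled diabetic and 3 from mice labelled nondiabetic. A diet with 60 kcal% fat, fed over 4 months, is written on all 6 samples, the nondiabetic ones included, and the diet of that group is therefore uncertain here. Neither age nor pooling of mice is labelled. Each sample was a sort of 5000 cells whose RNA was amplified and hybridised to a microarray. Whether the arrays stand for different animals is not stated, and the p-values therefore reflect the spread among these samples alone, which may be technical.

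A basement membrane is a thin sheet of matrix under endothelium, built from a laminin network and a type IV collagen network that nidogens and perlecan tie together. Each laminin is a trimer of an alpha, a beta and a gamma chain. Integrins are receptors of an alpha and a beta chain that span the cell membrane; the pairing decides whether they bind laminin, collagen, fibronectin or a protein on another cell. In the marrow the sheet under sinusoids is thin and interrupted, and blood cells leave through it. Integrins of leukocytes and platelets belong to the same gene family, so a sort of endothelium that holds other blood cells also carries signal of those chains.

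Values are log2 expression after RMA (robust multi-array average), and a difference is diabetic minus nondiabetic on that scale. The array medians lay between 5.21 and 5.28, and the number of arrays limited the precision. Of the 42 listed genes, 34 were tested; the other measured ones were left out as dim because their mean over the 6 arrays lay under a log2 value of 5.07, the 40th percentile of all genes. All 20 markers of endothelium fixed for the check of the sort lay above that limit, with a mean per array of 8.89 to 9.54 in diabetic and 8.97 to 9.40 in nondiabetic cells. Cdh5, the endothelial cadherin, averaged 10.88 ± 0.43 in diabetic and 10.98 ± 0.22 in nondiabetic cells (SD, n = 3 each). Markers of other cells were present as well, and are given further on. Diabetic replicate 1 stood apart in the endothelial markers, with a mean of 9.54 against 8.89 and 8.92 on the other diabetic arrays. Its mean over all tested genes was also the highest, at 6.84 against 6.69 to 6.73 on the other arrays. Values without it are therefore given for a number of genes and lists.

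No gene of the group passed the test between diabetic and nondiabetic cells. By limma with Benjamini-Hochberg adjustment over 13308 tested genes, 0 of 34 passed, with a smallest adjusted p of 0.997, where 0.00751% of all tested genes passed. At an unadjusted p under 0.05 the group had 1 gene, Nid1, which was higher, and 0 that were lower; of all tested genes 4.25% had such a p, 3.19% higher and 1.07% lower. The groups did not overlap for 1 of 34 genes, again Nid1, with the diabetic arrays above, and the diabetic arrays were below for 0 genes. Over all tested genes the groups were apart for 7.95%, with diabetic above for 5.28% and diabetic below for 2.67%. Values were higher in diabetic cells for 19 of 34 genes and lower for 15, where 54.0% of all tested genes were higher. The median difference was 0.03, beside 0.02 over all tested genes. The median size of a difference, sign aside, was 0.11 for these genes and 0.14 for all tested genes. The 95% interval, unadjusted, lay inside 1 on either side of 0 for 31 of 34 genes, and for 89.4% of all tested genes. For those 31 a change of 2-fold or more lay outside the interval, and the exceptions were Nid1, Bgn and Lama3. The interval lay inside 0.5 on either side of 0 for 10 genes.

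**Figure D1:**
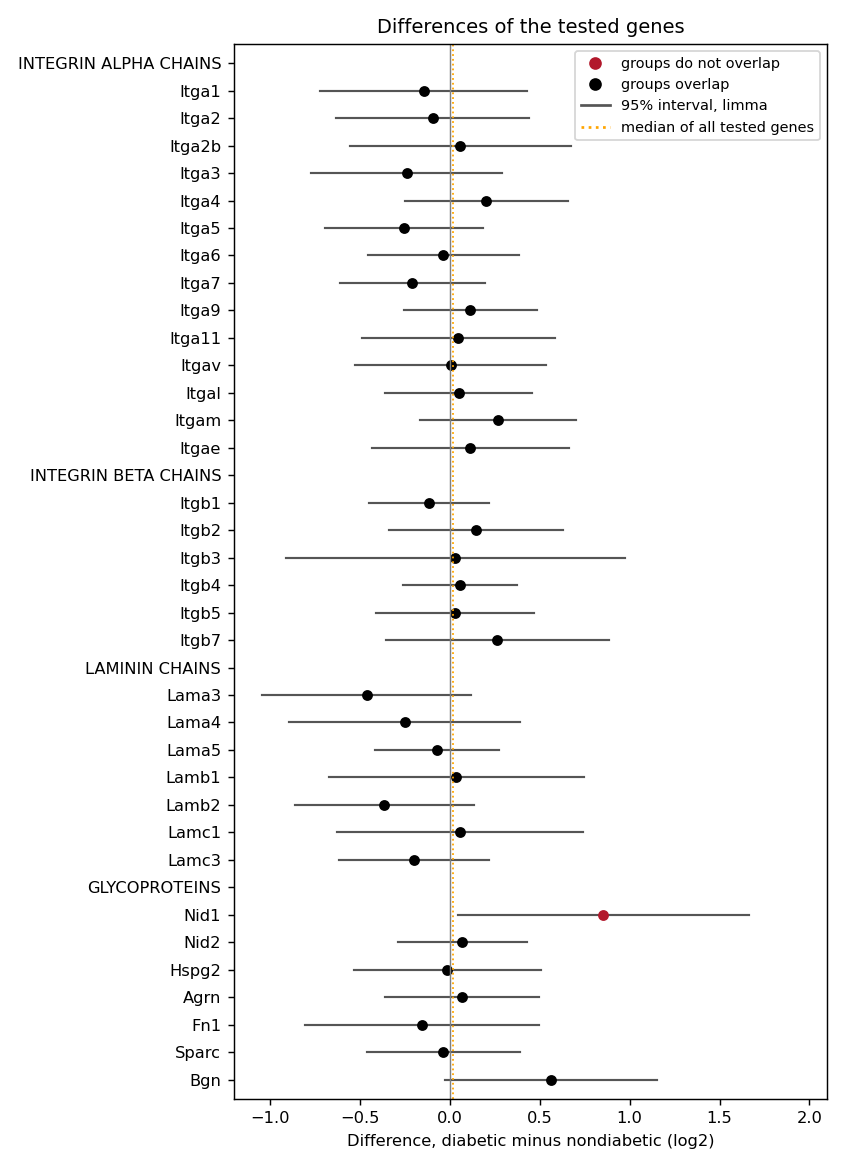
Difference between diabetic and nondiabetic cells (x axis, log2, diabetic minus nondiabetic) for the 34 tested genes, with the 95% interval of the limma fit as a line and the median of all tested genes as a dotted line. Nid1, drawn in red, is the gene whose groups did not overlap, and its interval of 0.04 to 1.66 is the one that lies wholly above 0.

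Without diabetic replicate 1 the picture leaned the other way. The values were then higher in diabetic cells for 14 genes and lower for 20, and the median difference was -0.13, beside -0.01 over all tested genes and -0.31 over the endothelial markers. With that array the median of the endothelial markers was -0.08. In these bulk samples fewer cells of a type and less RNA per cell cannot be told apart. The count of genes that passed stayed at 0 of the tested genes with each array left out in turn.

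Among the glycoproteins, nidogen-1 and biglycan had the largest differences over the 6 arrays. Without diabetic replicate 1 the largest in size was that of Fn1, at -0.44. Nid1 encodes nidogen-1, which links laminin to type IV collagen. Its values were 9.56, 8.02 and 8.51 in diabetic cells, against 7.76, 7.77 and 8.01 in nondiabetic cells. The groups did not overlap, but the lowest diabetic and the highest nondiabetic array were nearly level, and diabetic replicate 1 was far above the rest. Diabetic cells averaged 8.70 ± 0.78 and nondiabetic cells 7.85 ± 0.14 (SD, n = 3 each). The difference was 0.85 (SE 0.35), which is 1.81-fold, with a limma adjusted p of 0.997. Without diabetic replicate 1 the difference was 0.42, and with array weights it was 0.45.

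A second probe set of Nid1 did not show the gap. On that one, 17285244, the values were 8.66, 7.94 and 7.38 in diabetic cells, against 8.04, 7.57 and 7.69 in nondiabetic cells. The lowest value of all 6 was here a diabetic one, and the difference was 0.23. The mean of both probe sets differed by 0.54. The difference of Nid1 thus depends on which probe set stands for the gene; the rule took the brighter, 17285225.

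Bgn encodes biglycan, a small proteoglycan of the pericellular matrix. Its values were 10.25, 9.58 and 9.49 in diabetic cells, against 9.53, 9.25 and 8.85 in nondiabetic cells. The groups overlapped by a single nondiabetic array, and diabetic replicate 1 was again the highest. Diabetic cells averaged 9.77 ± 0.41 and nondiabetic cells 9.21 ± 0.34 (SD, n = 3 each), and the difference was 0.56 (SE 0.26), or 1.48-fold, with an interval of -0.03 to 1.15. The other probe set, 17542364, had 9.64, 8.52 and 8.60 in diabetic cells, against 8.61, 8.76 and 7.95 in nondiabetic cells, a difference of 0.49. There the diabetic arrays other than replicate 1 lay between the nondiabetic ones. Without diabetic replicate 1, the difference of Bgn was 0.33. Of all tested genes 3.76% had a difference above 0.5, and of these 34 genes 2 did, Nid1 and Bgn; 1.56% of all tested genes and 0 of the 34 had one below -0.5.

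**Figure D2:**
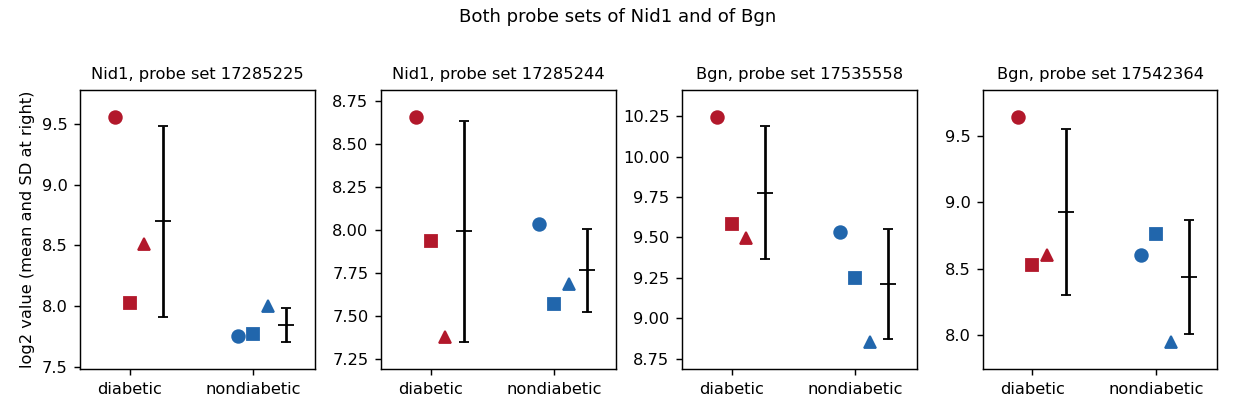
Log2 values (y axis) of both probe sets of Nid1 and both of Bgn in diabetic (red) and nondiabetic (blue) cells, with circles, squares and triangles for replicates 1, 2 and 3 and the mean and SD of each group at its right. Diabetic replicate 1 is the highest array in all 4 panels, and the groups are separate on 1 probe set, 17285225 of Nid1.

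The 250 bases before the RefSeq start of these genes are shown because they carry the largest differences of the group, and 28 of the 42 genes had such a sequence in the table used. Capitals mark the GC box core GGGCGG and the ETS core CCGGAA on either strand; these match motifs of the Sp and ETS families of transcription factors, and endothelium is rich in ETS factors. Both are on the plus strand of GRCm38.p6, at chr13:13437352-13437601 for Nid1 and at chrX:73483351-73483600 for Bgn.
Nid1: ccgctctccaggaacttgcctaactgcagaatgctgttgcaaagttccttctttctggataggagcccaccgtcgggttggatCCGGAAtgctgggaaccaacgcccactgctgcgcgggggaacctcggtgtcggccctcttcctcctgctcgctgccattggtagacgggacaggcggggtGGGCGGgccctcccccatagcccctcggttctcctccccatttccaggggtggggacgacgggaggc
Bgn: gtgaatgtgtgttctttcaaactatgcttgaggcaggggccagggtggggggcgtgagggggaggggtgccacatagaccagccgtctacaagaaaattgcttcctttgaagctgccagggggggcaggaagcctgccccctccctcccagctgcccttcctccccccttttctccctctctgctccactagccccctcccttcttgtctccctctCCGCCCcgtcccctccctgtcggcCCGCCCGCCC
Nid1 held 1 GC box and 1 ETS core, and Bgn held 3 GC boxes, of which the last pair overlap, and 0 ETS cores. Of 32851 such windows over all genes, 32.7% held the GC box core and 12% the ETS core. A match describes only the letters of these windows.

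The other glycoproteins had differences between -0.15 and 0.07 over the 6 arrays. Sparc encodes a secreted protein that binds collagen. Its values were 10.36, 10.06 and 9.84 in diabetic cells, against 10.15, 10.27 and 9.96 in nondiabetic cells. The groups lay across each other, with a difference of -0.04 (SE 0.18). Hspg2 encodes perlecan, the heparan sulfate proteoglycan that joins the laminin and collagen networks. Its values were 9.15, 8.67 and 8.52 in diabetic cells, against 8.88, 9.04 and 8.46 in nondiabetic cells, a difference of -0.01 with an interval of -0.53 to 0.51. Nid2, the second nidogen, differed by 0.07 with an interval of -0.29 to 0.43, and whether the nidogens differ from each other in this was not tested. Agrn, for the proteoglycan agrin, which binds laminin, differed by 0.07 (SE 0.19). Fn1, for fibronectin, the ligand of the integrin of Itga5 and Itgb1, stood at 7.85 ± 0.49 in diabetic and 7.999 ± 0.358 in nondiabetic cells (SD, n = 3 each), and differed by -0.15 (SE 0.28), or by -0.44 without diabetic replicate 1.

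The laminin chains had a median difference of -0.20 over the 7 tested of 10, with 2 higher and 5 lower in diabetic cells and 0 passing the test. The median was -0.26 without diabetic replicate 1 and -0.22 with array weights. It was -0.10 without diabetic replicate 2 and -0.07 without diabetic replicate 3, and -0.08 with the dim chains kept in. Lamb2 encodes a beta chain of mature vascular basement membranes. Its values were 8.47, 7.94 and 7.81 in diabetic cells, against 8.43, 8.66 and 8.21 in nondiabetic cells. Diabetic replicate 1 lay among the nondiabetic arrays and the other diabetic arrays lay below them, so the groups overlapped; the difference was -0.36 (SE 0.22), -0.56 without diabetic replicate 1 and -0.23 without diabetic replicate 3. Lama4 encodes an alpha chain that endothelium makes throughout its vessels. Its values were 8.50, 7.55 and 7.49 in diabetic cells, against 8.14, 8.27 and 7.88 in nondiabetic cells. The same array was the highest of all 6 while the other diabetic arrays were the lowest, and the difference of -0.25 (SE 0.28) was -0.58 without it. Lamc1 encodes the gamma chain shared by most laminins. Its values were 8.54, 7.61 and 7.86 in diabetic cells, against 8.38, 7.93 and 7.52 in nondiabetic cells, a difference of 0.06 (SE 0.30), and of -0.21 without diabetic replicate 1.

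The other laminin chains also overlapped between the groups. Lamb1, a beta chain that joins Lama4 and Lamc1, ranged from 5.77 to 7.02 in diabetic and from 6.09 to 6.56 in nondiabetic cells. Its difference was 0.04 (SE 0.31), and -0.26 without diabetic replicate 1. Lama5, the second alpha chain of endothelium, ranged from 6.72 to 7.02 in diabetic and from 6.91 to 6.96 in nondiabetic cells and differed by -0.07 (SE 0.15), with an interval of -0.42 to 0.27. Lama3, known best from epithelium, had the lowest difference of the 34 genes, -0.46 (SE 0.25), with values of 7.30, 6.76 and 6.99 in diabetic cells, against 7.57, 7.87 and 7.0003 in nondiabetic cells. Its groups overlapped and its interval reached from -1.04 to 0.12. The difference was -0.70 without nondiabetic replicate 3, -0.27 without nondiabetic replicate 2 and -0.60 without diabetic replicate 1. Lamb3, which joins Lama3 in the laminin of epithelia, was dim on all 6 arrays. Lamc3, a gamma chain of few tissues, differed by -0.20 (SE 0.18).

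Within the diabetic group the means of laminins, glycoproteins and endothelial markers were all highest on replicate 1. Between the other diabetic arrays the order differed. The endothelial mean was slightly higher on replicate 3, and the laminin and glycoprotein means were higher on replicate 2. Diabetic replicate 1 was the highest diabetic array for 6 of 7 laminins and for 6 of 7 glycoproteins, where this was so for 49.9% of all tested genes and for 18 of 20 endothelial markers. The exceptions were Lamc3 and Nid2. The laminin mean per array was 7.47, 7.005 and 6.85 in diabetic cells, against 7.38, 7.36 and 7.11 in nondiabetic cells. The glycoprotein mean was 8.85, 8.27 and 8.25 in diabetic cells, against 8.30, 8.39 and 8.10 in nondiabetic cells. The endothelial marker mean was 9.54, 8.89 and 8.92 in diabetic cells, against 9.21, 9.40 and 8.97 in nondiabetic cells. Among nondiabetic arrays, replicate 3 was the lowest in all 3 means. These are descriptions of 6 arrays that share their normalization, and the part of the endothelial content in the differences was not tested by them. In a fit with the endothelial marker mean as a covariate, Nid1 differed by 0.96, Bgn by 0.65 and the median laminin by -0.14, with a smallest adjusted p of 0.822 by limma over the group.

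**Figure D3:**
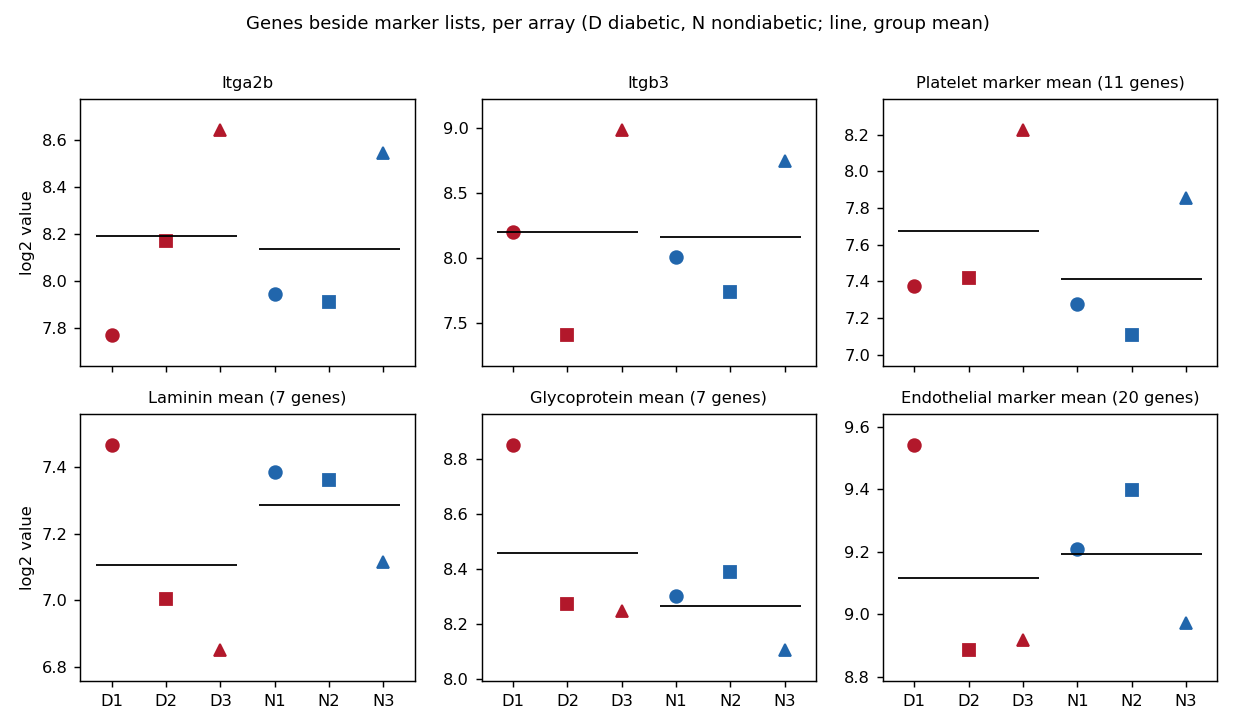
Log2 values per array (D1 to D3 diabetic, N1 to N3 nondiabetic) of Itga2b, Itgb3 and the mean of 11 platelet markers in the upper row, and of the laminin, glycoprotein and endothelial marker means in the lower row; lines are group means. D3 and N3 are the highest arrays of their groups in each upper panel, and D1 is the highest array in each lower panel.

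Stromal and mural cells also make basement membrane proteins. Of 12 stromal and osteoblast markers fixed for the check, 11 were measured and 5 were tested, with a mean per array of 5.93 to 6.05 in diabetic and 5.95 to 6.03 in nondiabetic cells. The stromal markers Lepr, Pdgfra, Dcn and Lum were all dim. Alpl, the brightest of the list, stood at 8.15 ± 0.53 in diabetic and 8.19 ± 0.25 in nondiabetic cells (SD, n = 3 each). Of 10 markers of pericytes and smooth muscle 8 were tested, with means of 7.05 to 7.07 in diabetic and 6.88 to 7.24 in nondiabetic cells. Of these 8, 4 were higher and 4 lower in diabetic cells. Rgs5, the brightest, averaged 9.86 ± 0.29 in diabetic and 10.13 ± 0.86 in nondiabetic cells (SD, n = 3 each). The part of mural cells in the laminin and nidogen values was not tested.

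Of the integrin beta chains, Itgb1, the partner of most matrix-binding alpha chains, was the steadiest of the bright ones. Its values were 9.59, 9.53 and 9.37 in diabetic cells, against 9.58, 9.61 and 9.64 in nondiabetic cells. The groups overlapped only at diabetic replicate 1, and the difference was -0.11 (SE 0.14) with an interval of -0.45 to 0.22. It was among the 10 genes whose interval stayed inside 0.5. Itgb4, which pairs with Itga6 to bind laminin, spanned 0.08 over diabetic and 0.05 over nondiabetic arrays and differed by 0.06 (SE 0.14). Itgb5, a partner of Itgav, differed by 0.03 (SE 0.19).

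The laminin receptors among the alpha chains, Itga6, Itga3 and Itga7, were all lower on average in diabetic cells, but the interval of each held 0. Itga6, which pairs with Itgb1 or Itgb4, had values of 9.04, 8.55 and 8.95 in diabetic cells, against 8.81, 8.78 and 9.05 in nondiabetic cells. The groups overlapped throughout, with a difference of -0.04 (SE 0.18). Itga3, a laminin receptor chain with Itgb1, differed by -0.24 (SE 0.23), and Itga7, a laminin receptor chain best known from muscle, by -0.21 (SE 0.18). Itga3 went with diabetic replicate 1, at 6.88 there and 6.16 and 6.15 on the other diabetic arrays, and without it the difference was -0.48.

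The collagen receptor chains had differences of either sign, and the groups overlapped for each tested one. Itga1, which binds type IV collagen with Itgb1, had values of 9.15, 8.37 and 8.26 in diabetic cells, against 8.77, 8.89 and 8.56 in nondiabetic cells. As for Lama4, diabetic replicate 1 was the highest of the 6 and the other diabetic arrays were the lowest. Its difference was -0.15 (SE 0.25), and -0.42 without that array. Itga2, the collagen receptor chain of platelets and of some endothelium, differed by -0.10 (SE 0.23). Itga11, a collagen receptor chain of fibroblasts, differed by 0.05 (SE 0.23), with 1 nondiabetic array under the limit for dim genes.

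The chains that bind fibronectin and related ligands did not pass either. Itga5, the fibronectin receptor chain, stood at 7.45 ± 0.15 in diabetic and 7.70 ± 0.29 in nondiabetic cells (SD, n = 3 each), and differed by -0.25 with an interval of -0.69 to 0.18. Itgav, which binds vitronectin and fibronectin with several beta chains, differed by 0.00476 (SE 0.23) on its brighter probe set, with 7.14 and 7.09 on diabetic replicates 1 and 2 and 6.34 on diabetic replicate 3. Its second probe set was dim on average and differed by 0.05. Itga4, which binds Vcam1 and fibronectin and is abundant on blood progenitors and lymphocytes, differed by 0.20 (SE 0.20). Itga9, a receptor chain for tenascin-C and Vcam1, differed by 0.12 (SE 0.16).

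The integrin of platelets, built from Itga2b and Itgb3, did not pass the test, and both chains were highest on the arrays where platelet markers were highest. Itga2b had 7.77, 8.17 and 8.64 in diabetic cells, against 7.95, 7.91 and 8.55 in nondiabetic cells. Itgb3 had 8.20, 7.40 and 8.99 in diabetic cells, against 8.01, 7.74 and 8.75 in nondiabetic cells. Replicate 3 was the highest array of its group for both chains and in both groups, and the ranges overlapped. The same array was the highest of each group for Itgb2, Itgb5 and the mean of the basophil and mast cell markers, so this order is not particular to the platelet integrin. The lowest diabetic array was replicate 1 for Itga2b and replicate 2 for Itgb3, and the platelet marker mean was lowest on replicate 1. The differences were 0.06 (SE 0.27) for Itga2b and 0.03 (SE 0.41) for Itgb3, whose interval of -0.91 to 0.97 was the widest of the 34 genes. Of 14 platelet and megakaryocyte markers, 11 were measured, and all 11 were tested. In diabetic cells 10 of these markers were higher and 1 was lower, with a median difference of 0.16 and 0 passing the test. All 11 were highest on diabetic replicate 3 among the diabetic arrays, where 28.6% of all tested genes were, and 8 of 11 were highest on nondiabetic replicate 3, where 30.1% were. Their mean per array was 7.38, 7.42 and 8.23 in diabetic cells, against 7.28, 7.11 and 7.85 in nondiabetic cells, and the platelet chemokine Ppbp stood at 11.39 ± 0.49 in diabetic and 11.32 ± 0.47 in nondiabetic cells (SD, n = 3 each). Itgb3 is also an endothelial chain with Itgav, and the share of platelet RNA in its signal was not tested.

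The leukocyte chains were higher in diabetic cells by small amounts, none of which passed. Itgb2, the common beta chain of leukocyte integrins, had 7.76, 7.84 and 8.25 in diabetic cells, against 7.83, 7.51 and 8.08 in nondiabetic cells, with overlapping groups and a difference of 0.15 (SE 0.21). Its partners Itgal, of lymphocytes and other leukocytes, and Itgam, of myeloid cells, differed by 0.05 (SE 0.18) and 0.27 (SE 0.19). Itgb7, which pairs with Itga4 or Itgae on lymphocytes and mast cells, differed by 0.27 (SE 0.27), and Itgae, which binds E-cadherin, by 0.11 (SE 0.24). The values of Itgb7 were 7.08, 7.42 and 7.49 in diabetic cells, against 6.66, 6.86 and 7.66 in nondiabetic cells, so the highest value of all was nondiabetic. No marker of the blood cell lists passed the test. The platelet, monocyte, neutrophil and basophil lists had more values higher than lower in diabetic cells, where 54.0% of all tested genes were higher. The platelet list had 10 higher and 1 lower, and the basophil and mast cell list 5 and 2. B lymphoid and erythroid markers had 3 higher and 3 lower each, and T and NK markers 2 and 3. Of 11 tested monocyte and macrophage markers 9 were higher in diabetic cells, with means per array of 7.62 to 7.64 in diabetic and 7.15 to 7.39 in nondiabetic cells, and 4 markers, Adgre1, C1qc, Fcgr1 and Mpeg1, were dim. Of 9 tested neutrophil markers 8 were higher, with means of 7.63 to 7.67 in diabetic and 7.11 to 7.49 in nondiabetic cells, and 5 others were dim. The T cell markers Cd3d, Cd3e and Cd3g were dim. The part of these cells in the leukocyte chains was not tested. The basophil and mast cell markers, all 7 of them tested, had means of 9.41 to 9.92 in diabetic and 9.13 to 10.24 in nondiabetic cells, and the highest array was nondiabetic replicate 3, as for Itgb7.

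**Figure D4:**
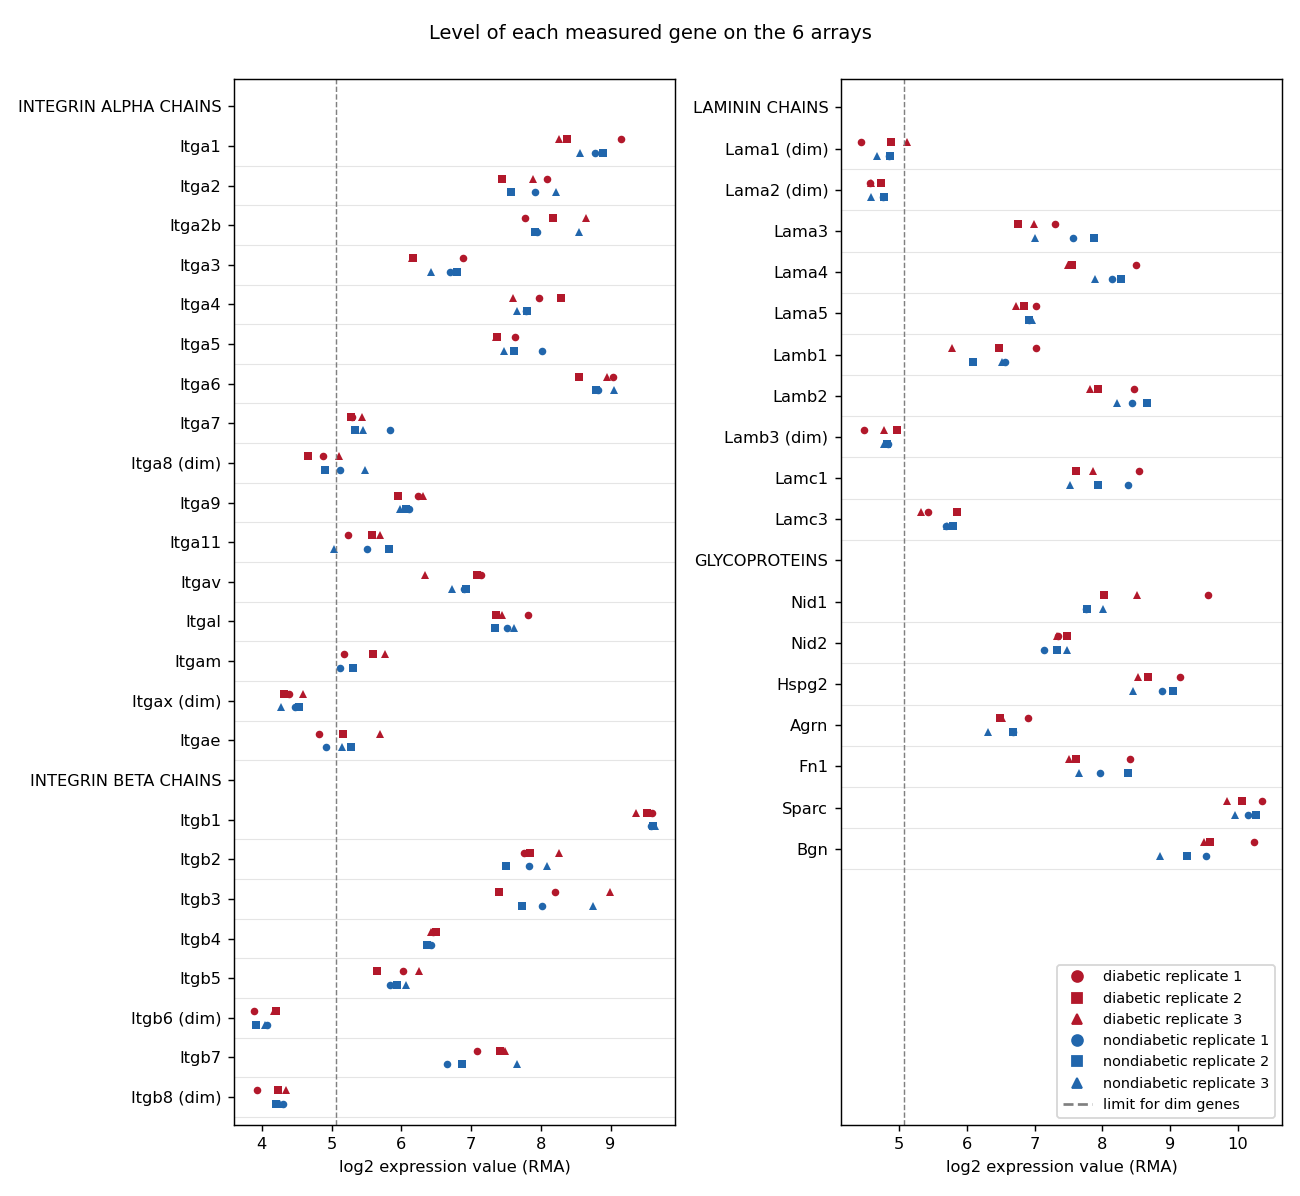
Log2 value (x axis) of each of the 41 measured genes on the diabetic arrays (red, upper points of each gene) and the nondiabetic arrays (blue, lower points); circles, squares and triangles are replicates 1, 2 and 3. The dashed line is the limit for dim genes of 5.07, and the 7 genes marked dim have a mean under it.

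The genes left out as dim were Itga8, Itgax, Itgb6, Itgb8, Lama1, Lama2 and Lamb3. Itgax, of dendritic cells, Itgb6 and Itgb8, partners of Itgav, and Lama2 and Lamb3 lay under the limit on all 6 arrays. Itga8, a receptor chain for nephronectin, lay at or above it on 3 arrays, with means of 4.88 ± 0.22 in diabetic and 5.17 ± 0.29 in nondiabetic cells (SD, n = 3 each). Lama1, a laminin chain of early embryos, was above it on 1 array, diabetic replicate 3, at 5.11. A probe set at this level may show background alone, so no difference is given for these genes.

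The median SD within groups was 0.30 for the 34 genes and 0.24 for all tested genes, and it lay above that of the median tested gene for 20 of them. Itgb3 had the widest spread, with an SD within groups of 0.67, followed by Nid1 with 0.56 and Lamb1 with 0.48, and Itgb4 had the narrowest, 0.03.

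Other genes of matrix adhesion, taken from 4 lists of related genes, gave the same count of 0 that passed. Of 41 proteins that connect integrins to actin and to signaling, 34 were tested, with 20 higher and 14 lower in diabetic cells. Their median difference was 0.03, or -0.09 without diabetic replicate 1. The diabetic arrays lay above without overlap for 2 of the 34, Itgb1bp1 and Tns3, and below for 1, Tln2. Over all tested genes the groups were apart for 7.95%. Itgb1bp1, a protein that binds the tail of Itgb1 and restrains its activation, had 6.74, 6.30 and 6.53 in diabetic cells, against 5.93, 5.77 and 5.64 in nondiabetic cells. The groups did not overlap, and the difference was 0.74 (SE 0.17), which did not pass over all genes (limma adjusted p of 0.997). These values are from the brighter of 2 probe sets of Itgb1bp1, and whether the other shows the gap was not examined. Tln2, a talin that couples integrins to actin, lay below in all diabetic arrays, at 5.49, 5.55 and 5.53, against 5.87, 6.37 and 5.63 in nondiabetic cells, a difference of -0.43 (SE 0.21). Rap1b, a small GTPase that switches integrins on, differed by 0.03 (SE 0.16).

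Of 27 further basement membrane genes 16 were tested, 9 higher and 7 lower, with a median difference of 0.03, or -0.11 without diabetic replicate 1. Fbln5, an elastic fibre protein that binds integrins, differed by -0.44 (SE 0.22), and Col18a1, the source of endostatin, by 0.25 (SE 0.16). Col18a1 was the 1 gene of these 16 whose groups did not overlap, with the diabetic arrays above. Sparcl1, a relative of Sparc, stood at 10.91, 9.80 and 9.79 in diabetic cells, against 9.79, 10.34 and 10.13 in nondiabetic cells, with diabetic replicate 1 the highest once more. Of 11 matrix receptors other than integrins 10 were tested, 6 higher and 4 lower, with a median of 0.05, or 0.02 without that array; Rpsa, the laminin-binding ribosomal protein, differed by 0.21 (SE 0.16) and the syndecan Sdc1 by 0.37 (SE 0.36). Of 14 integrin ligands 11 were tested, 8 higher and 3 lower, with a median of 0.10, which was 0.0003 without diabetic replicate 1. Vcam1, the ligand of Itga4 and Itga9, had 9.33, 8.37 and 8.03 in diabetic cells, against 7.61, 7.58 and 7.74 in nondiabetic cells, with no overlap. Diabetic replicate 1 was again the highest, and the difference of 0.93 (SE 0.31) had a limma adjusted p of 0.997. Tnc, for tenascin-C, differed by 0.28 (SE 0.17), also with no overlap, but reached the limit for dim genes on only 2 of 6 arrays. Vcam1 and Tnc were the 2 of 11 tested ligands whose groups were apart. Jam2, an adhesion protein of endothelial junctions, differed by -0.42 (SE 0.30). For Vcam1 the receptor chain Itga4 had 7.97, 8.29 and 7.60 in diabetic cells, against 7.79, 7.80 and 7.66 in nondiabetic cells, and there the groups overlapped.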

How the data were processed

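Amplification of the sorted cells' RNA used the Ovation Pico WTA kit, per the labels' protocols. The deposited table holds log2 values, and RMA is the method named in the submitters' processing notes; software, version and probe annotation: not given in the sources used here. RMA equalises the arrays' distributions, so a shift common to all genes would not be visible.

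The table held 41345 probe sets; 23521 named 1 gene in the platform annotation supplied, which can be old, 1814 named several and were left out, and 16010 had no name here. Each gene took its brightest probe set by the mean over 6 arrays, and genes under the 40th percentile were left out as dim. The comparison used limma (version 3.58.1, R version 4.3.3; lmFit and eBayes, no covariates, two-sided, Benjamini-Hochberg over 13308 genes, threshold 0.05). Intervals are 95% and unadjusted. The procedure was tested on simulated data. Promoters came from RefSeq, GRCm38.p6.

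The genes and lists were chosen with earlier results of these data known. All listed genes are named; values of every array are given for those whose groups do not overlap or whose unadjusted p is under 0.05 and the 3 brightest of each family, and for Lama3, Itgb7, Itga4 and several others, chosen after their values were seen. Of each related list the 2 genes of smallest p and the brightest are named. Of marker lists the brightest is named, with any others picked later to describe dim markers. Among the brightest, Ly6c2 averaged 11.09 in diabetic and 10.76 in nondiabetic cells, and in the same order Mpo 10.71 and 10.45, Prss34 11.39 and 11.29, Gzmb 8.83 and 8.48, Ebf1 8.14 and 8.37, and Car1 9.58 and 9.67. The tested T and NK, B lymphoid and erythroid markers had median differences of -0.10, 0.21 and 0.01, and of -0.02, 0.07 and -0.06 without diabetic replicate 1. Those of the platelet, monocyte, neutrophil and basophil lists were 0.16, 0.43, 0.29 and 0.11, and 0.30, 0.24, 0.19 and 0.24 without that array.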

Additional observations from a re-analysis of the deposited data

How the results depend on the processing

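The count of genes of the group that passed was 0 under all 16 alternatives tried, of which 6 left out an array each. The others changed the filter (none, or the 60th percentile), the probe sets (averaged per gene, or tested singly), the scaling (quantile or median), the eBayes options, the array weights, the block or the endothelial covariate. The lowest adjusted p by limma was 0.53, with array weights. Over all tested genes 1 passed, and 0 with the filter at the 60th percentile; with each array left out it was 0 to 1, and 0 without nondiabetic replicate 3. The median difference of the group was 0.03 and ranged from -0.13 to 0.036 with each array left out, the lowest without diabetic replicate 1. With array weights it was -0.066, with 13 genes higher and 21 lower. With the replicate block the group median was 0.03, 0 genes passed, and no call changed. The SE was smaller with the block for some genes (Itgb3, 0.20 against 0.41) and larger for others (Itgb1, 0.17 against 0.14). Deviations of same-numbered arrays correlated at -0.04, -0.06 and 0.02, and those of differently numbered arrays at -0.03 to 0.07. With 3 arrays per group these values cannot decide whether the numbers pair the samples. Of the 34 tested genes, 14 kept the sign of their difference in every alternative in which their value was recomputed (14 or 15 of the 16) and 20 turned in at least 1; testing probe sets singly gave no value per gene, and 6 genes lay under the 60th percentile; each of the differences that turned was smaller than its standard error. With quantile normalization again, Itgav differed by -0.027 and Lamb1 by -0.0081. With array weights, Itga9 differed by -0.017, Itgal by -0.055, Itgb3 by -0.36, Itgb5 by -0.15, Lamc1 by -0.22 and Agrn by -0.041. With the endothelial covariate, Itga2b differed by -0.026, Itgb3 by -0.0088, Hspg2 by 0.063 and Sparc by 0.016. With each array left out, the differences ranged from -0.42 to 0.021 for Itga1, -0.26 to 0.090 for Itga2, -0.17 to 0.27 for Itga2b, -0.13 to 0.11 for Itga6, -0.16 to 0.23 for Itga11, -0.14 to 0.26 for Itgav, -0.088 to 0.14 for Itgal and -0.12 to 0.32 for Itgae. They ranged from -0.0048 to 0.28 for Itgb2, -0.36 to 0.43 for Itgb3, -0.11 to 0.19 for Itgb5, -0.15 to 0.0017 for Lama5, -0.26 to 0.36 for Lamb1 and -0.21 to 0.28 for Lamc1. For Nid2 the range was -0.016 to 0.15, for Hspg2 -0.20 to 0.12, for Agrn -0.061 to 0.14, for Fn1 -0.44 to 0.033 and for Sparc -0.17 to 0.088. With each array left out, Lama3 ranged from -0.70 to -0.27 and Lamb2 from -0.56 to -0.23. Nid1 ranged from 0.42 to 1.19 and Bgn from 0.33 to 0.72 with each array left out, and neither turned sign; apart from what leaving out an array does by itself, the cause of these changes was not tested. Signal near background limits the genes left out as dim.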
